A study of Mus musculus with 2 samples.

Results

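The genes described here are 9 genes of MHC class I antigen presentation: the heavy chains H2-K1, H2-D1 and H2-T23, the light chain B2m, the peptide transporter subunits Tap1 and Tap2, the loading factor Tapbp, the trimming peptidase Erap1 and the transcriptional activator Nlrc5. Their probes were found by RefSeq accession on both arrays, which gave 11 probes of 55681, for 9 of 20284 named genes. H2-K1 and Nlrc5 have 2 probes each, and the 11 probes fill 30 spots per array.

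Liver RNA was compared on 2 arrays of 2 colours each, with a pool of CREBH KO mice in the Cy5 channel and a pool of wild-type (WT) mice in the Cy3 channel. The 4 pools were CREBH KO fasted for 24 h, WT fasted for 24 h, CREBH KO fed ad lib and WT fed ad lib, all on the C57B6J background. The KO mice are null for CREBH, the product of Creb3l3, a membrane-bound transcription factor of hepatocytes. The number and age of the mice in a pool are not stated by the labels. Each pool was measured once, and KO carried the same dye on both arrays. The values below therefore have no replicate check and no test, and within an array a probe's dye effect and genotype cannot be told apart.

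MHC class I molecules show peptides from the cell's own proteins to CD8 T cells, and NK cells sense their absence. Proteasomes cut proteins, TAP1 and TAP2 carry the peptides into the endoplasmic reticulum, ERAP1 trims them, tapasin (Tapbp) holds the empty heavy chain at the transporter, and beta-2-microglobulin (B2m) pairs with the heavy chain. Interferons induce most of these genes, and NLRC5 acts at an arrangement of promoter boxes that class I genes share. In liver, class I is carried by hepatocytes as well as by Kupffer, endothelial and immune cells.

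The RefSeq promoter table (build GRCm38.p6) held windows for 7 of the 9 genes, all but Tap2 and Nlrc5. Each window runs from 250 bases before to 50 after the start and is read 5′ to 3′ on the gene's strand. In that table's gene list H2-K1, H2-D1, H2-T23, Tap1, Tap2 and Tapbp lie on chromosome 17, B2m on chromosome 2, Erap1 on chromosome 13 and Nlrc5 on chromosome 8. The 5 windows that follow are printed because H2-K1, H2-D1 and B2m share an arrangement of boxes, because Tap1 shares its window with a proteasome gene, and because Erap1 had the fed ratio nearest to 0 under loess. Capitals mark CCAAT (core of the Y box), TGACG (found in the X2 box and in cAMP response elements), and a longer and a shorter core of interferon response elements, each on either strand. The longer core is GAAA, any 2 bases and GAAA, and the shorter is GAANNGAAA.
H2-K1 (chr17:34000298-34000597, minus strand): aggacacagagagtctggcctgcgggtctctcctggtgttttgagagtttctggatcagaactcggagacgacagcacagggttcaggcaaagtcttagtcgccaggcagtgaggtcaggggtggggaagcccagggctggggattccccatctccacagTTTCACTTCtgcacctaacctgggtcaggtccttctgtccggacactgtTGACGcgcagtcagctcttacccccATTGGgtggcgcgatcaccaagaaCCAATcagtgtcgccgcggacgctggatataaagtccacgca
H2-D1 (chr17:35262844-35263143, plus strand): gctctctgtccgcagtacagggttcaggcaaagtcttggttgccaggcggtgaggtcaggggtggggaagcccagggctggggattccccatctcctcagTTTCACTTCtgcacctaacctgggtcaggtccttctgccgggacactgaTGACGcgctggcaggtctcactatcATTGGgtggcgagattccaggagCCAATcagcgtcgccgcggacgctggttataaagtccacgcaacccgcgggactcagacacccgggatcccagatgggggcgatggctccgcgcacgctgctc
B2m (chr2:122147437-122147736, plus strand): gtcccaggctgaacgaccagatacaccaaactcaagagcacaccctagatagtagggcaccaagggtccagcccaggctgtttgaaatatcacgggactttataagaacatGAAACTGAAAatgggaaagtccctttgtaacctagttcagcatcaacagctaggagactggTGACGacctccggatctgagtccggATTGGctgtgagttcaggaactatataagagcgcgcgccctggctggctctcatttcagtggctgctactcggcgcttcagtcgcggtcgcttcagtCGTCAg
Tap1 (chr17:34187306-34187605, plus strand): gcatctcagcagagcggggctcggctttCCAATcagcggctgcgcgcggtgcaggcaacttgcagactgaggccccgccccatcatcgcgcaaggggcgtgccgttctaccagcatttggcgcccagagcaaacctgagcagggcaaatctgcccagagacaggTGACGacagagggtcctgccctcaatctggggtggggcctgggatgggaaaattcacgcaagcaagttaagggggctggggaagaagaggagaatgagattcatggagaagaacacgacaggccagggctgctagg
Erap1 (chr13:74639603-74639902, plus strand): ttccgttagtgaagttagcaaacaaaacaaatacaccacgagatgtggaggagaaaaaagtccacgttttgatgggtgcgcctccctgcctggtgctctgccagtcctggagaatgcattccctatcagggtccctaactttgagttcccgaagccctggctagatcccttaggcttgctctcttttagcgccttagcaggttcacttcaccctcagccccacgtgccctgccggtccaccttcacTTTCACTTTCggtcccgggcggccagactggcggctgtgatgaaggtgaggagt

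CCAAT stood in 6 of the 7 windows, all but that of Erap1, against 37.9% of 27025 mouse promoters. TGACG stood in 4 windows, those of H2-K1, H2-D1, B2m and Tap1, against 21.0%. In H2-K1, H2-D1 and B2m, TGACG was followed after 20 bases by ATTGG, which is CCAAT on the other strand. This arrangement was looked for after the promoters had been seen, and 26 of all promoters held it (0.0962%). Among 16 windows of other class I heavy chains it stood in 1, H2-M3, and among 4 class II windows in 0. The longer interferon core stood in 3 windows, those of H2-T23, B2m and Erap1, against 3.49%, and only B2m had it on its own strand. GAANNGAAA, likewise added after the windows had been seen, stood in H2-K1 and H2-D1, against 7.56%. The letters GGG, any 5 bases and CC, a core bound by NF-kappaB, stood in 4 windows (50.4% of promoters), and TTCNNNGAA, the core of gamma-activated sites, in 0 (8.47%). A window was counted once however many matches it held, and matches of the longer and shorter interferon cores did not overlap in these windows. A match describes letters and not binding. The window of Tap1 overlaps that of Psmb9, which is read from the other strand, over 275 bases.

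Creb3l3, the targeted gene, stood at -2.07 in fasted and -0.88 in fed liver (log2, KO over WT) at its only probe. The log2 signal was 12.95 in KO fasted, 15.03 in WT fasted, 13.12 in KO fed and 14.00 in WT fed liver, so the probe kept signal in KO. Whether that probe lies in the deleted part is not stated by the labels. The 6 hepatocyte markers looked up were all well above background in all 4 pools. Of 59305 gene spots per array, 45.8% of KO and 45.9% of WT spots were well above background when fasted, and 42.9% of KO and 39.9% of WT spots when fed. Probes printed 10 times gave a median SD between spots of 0.08 for the fasted log2 ratio (258 probes) and 0.09 for the fed one (235 probes), which holds no difference between mice, pools or labellings. Every class I probe was well above background in all 4 pools. Levels below are normalized log2 signals, on which probes of different genes cannot be ranked, and a difference of at least 1.5-fold or 2-fold served as rule of size. Orders of fasted against fed pools cross the arrays and depend on the normalization between them.

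In the KO pools the class I genes were mostly lower than in WT, by less when fasted than when fed. In fasted liver 8 of 9 log2 KO over WT ratios were below 0 (47.3% of all 12262 measured genes), and in fed liver 9 of 9 (46.9% of 11377). The members' median was -0.28 fasted and -0.48 fed, and that of all measured genes was 0.01 on both arrays. Ratios were normalized by loess, which removes a trend with brightness. When each array was instead centred on its measured gene spots, by their median, the members' median was 0.08 fasted and -0.14 fed, 6 of the 9 genes changed sign when fasted, and 2 (H2-K1 and B2m) when fed. In bulk liver RNA, fewer cells of a type and less RNA per cell cannot be told apart.

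**Figure D1:**
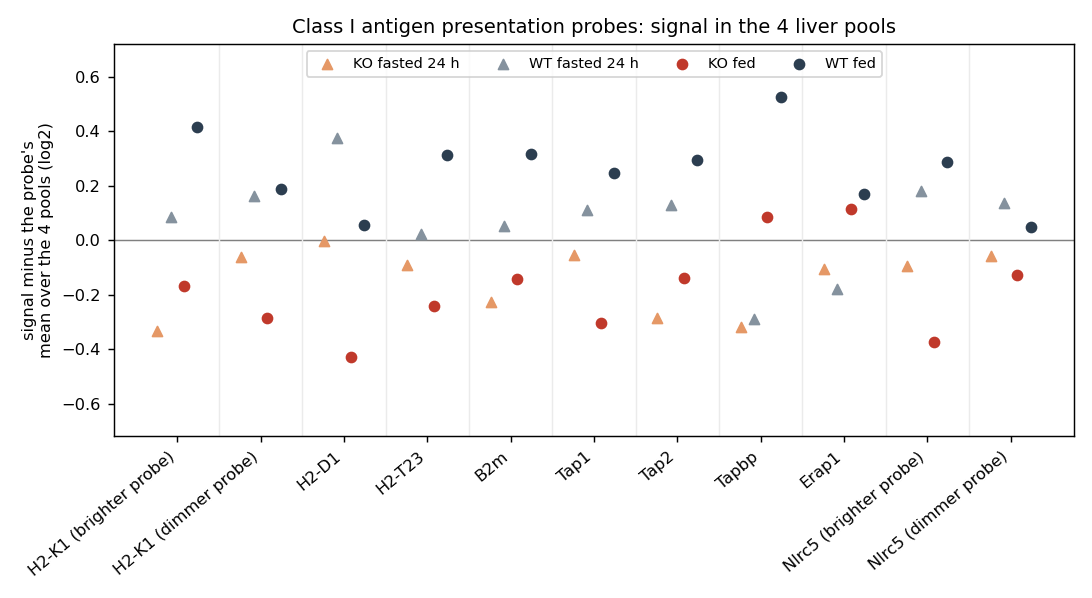
Normalized log2 signal of each class I probe in the KO fasted, WT fasted, KO fed and WT fed pools (1 point per pool), as the difference from the probe's mean over the 4 pools. The KO fed point lies below the WT fed point for all 11 probes, by 0.05 for Erap1 and by 0.18 to 0.66 for the others; with arrays centred on measured gene spots in place of loess, the fed ratios of H2-K1 and B2m were above 0.

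H2-K1 and H2-D1 encode the classical heavy chains that show peptides to CD8 T cells. The brighter H2-K1 probe (A_51_P198434, printed 10 times) had a log2 signal of 14.69 in KO fasted, 15.11 in WT fasted, 14.86 in KO fed and 15.44 in WT fed liver. Each KO pool was below both WT pools. Its log2 KO over WT ratio was -0.42 ± 0.07 fasted and -0.59 ± 0.06 fed (SD over 10 spots), which is 1.33-fold and 1.5-fold lower. The spots ranged from -0.51 to -0.28 fasted and from -0.68 to -0.47 fed. The dimmer H2-K1 probe (A_55_P2049647, 1 spot) read 13.60 in KO fasted, 13.82 in WT fasted, 13.37 in KO fed and 13.84 in WT fed liver, with ratios of -0.23 fasted and -0.47 fed. Both probes put KO below WT in each state, but the KO fasted pool lay below the KO fed pool at the brighter probe and above it at the dimmer one. H2-K1 was at 0.11 fasted and 0.01 fed when arrays were centred on measured gene spots.

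H2-D1 (A_65_P19395, 1 spot) read 13.69 in KO fasted, 14.07 in WT fasted, 13.27 in KO fed and 13.75 in WT fed liver. The WT fasted pool was highest and the KO fed pool lowest. Its ratio was -0.38 fasted and -0.48 fed, or 0.08 and -0.00 with centring on measured gene spots. H2-D1 was the only member whose brightest probe was higher fasted than fed in both genotypes. H2-K1, H2-D1 and the H2-Q genes are near-identical over long stretches, and their signals cannot be separated for sure at the probe level.

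H2-T23 encodes Qa-1, a non-classical heavy chain that receptors of NK and T cells read. Its probe (A_51_P237754, 1 spot) read 13.75 in KO fasted, 13.86 in WT fasted, 13.60 in KO fed and 14.15 in WT fed liver. The fasted pools were close together, and the fed pools were the lowest and the highest of the 4. The ratio was -0.12 fasted and -0.55 fed, 1.08-fold and 1.47-fold lower, and with centring on measured gene spots it was 0.34 and -0.05. The scanner software's error of the log2 ratio was 0.205 fasted and 0.211 fed. Without normalization between arrays the fasted over fed log2 ratio of H2-T23 was 0.74 in KO and 0.30 in WT. WT fed was then not the highest pool.

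B2m encodes the light chain that every class I heavy chain pairs with. Its probe (A_51_P129012, 2 spots) read 14.56 in KO fasted, 14.84 in WT fasted, 14.64 in KO fed and 15.10 in WT fed liver. Each KO pool was below both WT pools, as at the brighter H2-K1 probe. The ratio was -0.28 ± 0.04 fasted and -0.46 ± 0.03 fed (SD over 2 spots), 1.21-fold and 1.37-fold lower, or 0.24 and 0.12 with centring on measured gene spots.

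Tap1 and Tap2 encode the subunits of the peptide pump in the membrane of the endoplasmic reticulum. Tap1 (A_51_P100327, printed 10 times) read 6.99 in KO fasted, 7.15 in WT fasted, 6.74 in KO fed and 7.29 in WT fed liver. Between 23.3% (KO fed) and 40.1% (WT fasted) of measured probes were dimmer. Its ratio was -0.17 ± 0.06 over 10 spots fasted and -0.55 ± 0.08 over 9 spots fed, the tenth having been marked as an outlier. The spot ranges, -0.24 to -0.06 fasted and -0.70 to -0.45 fed, did not overlap. The scanner software's own log2 ratios of Tap1 were larger, -0.32 fasted and -1.22 fed, and the offset used here draws ratios of dim probes towards 0. Centred on measured gene spots, Tap1 was at -0.32 fasted and -0.89 fed.

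Tap2 (A_55_P2017645, 1 spot) read 10.39 in KO fasted, 10.80 in WT fasted, 10.54 in KO fed and 10.97 in WT fed liver. KO was below WT by nearly the same amount in each state: the ratio was -0.41 fasted and -0.43 fed, 1.33-fold and 1.35-fold lower. Centred on measured gene spots it was at -0.17 and -0.14. In the gene list Psmb8, an immunoproteasome gene, is the only coding gene between Tap1 and Tap2.

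Tapbp encodes tapasin, which keeps the peptide-free heavy chain at the transporter. Its probe (A_55_P2149763, 1 spot) read 10.23 in KO fasted, 10.26 in WT fasted, 10.63 in KO fed and 11.07 in WT fed liver. The fasted pools were close and lay below both fed pools. The ratio was -0.03 fasted and -0.44 fed, or 0.20 and -0.14 with measured gene spots as centre. Without normalization between arrays the fasted over fed log2 ratio of Tapbp was 0.21 in KO and -0.20 in WT. KO fasted then lay above KO fed.

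Erap1 encodes the peptidase that trims peptides in the endoplasmic reticulum to the length class I molecules hold. It (A_65_P04284, 1 spot) read 7.08 in KO fasted, 7.01 in WT fasted, 7.30 in KO fed and 7.36 in WT fed liver. KO and WT differed by less than the scanner error of 0.21 fasted and 0.22 fed. The ratio was 0.07 fasted and -0.05 fed, nearest to 0 of the members' fed ratios under loess. Centred on measured gene spots it was at -0.08 fasted and -0.28 fed, and the scanner software gave 0.11 and -0.21.

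Nlrc5 encodes an NLR protein that activates transcription of class I genes. Its brighter probe (A_55_P2016034, 1 spot) read 8.31 in KO fasted, 8.59 in WT fasted, 8.03 in KO fed and 8.69 in WT fed liver. Each KO pool was below both WT pools. The ratio was -0.28 fasted and -0.66 fed, 1.21-fold and 1.58-fold lower, and -0.18 and -0.63 with centring on measured gene spots. Without normalization between arrays the fasted over fed log2 ratio of this probe in KO was 0.81. KO fasted then lay above WT fed. The dimmer probe (A_66_P113043, 1 spot) read 6.32 in KO fasted, 6.51 in WT fasted, 6.25 in KO fed and 6.42 in WT fed liver. The lowest signals counted as above background lay between 6.04 and 6.11. The dimmer probe gave -0.19 fasted and -0.18 fed, against scanner ratios of -0.57 and -0.66, and the brighter one had scanner ratios of -0.29 and -0.97. The probes of Nlrc5 thus differed in size when fed, in a range where the offset draws ratios towards 0.

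**Figure D2:**
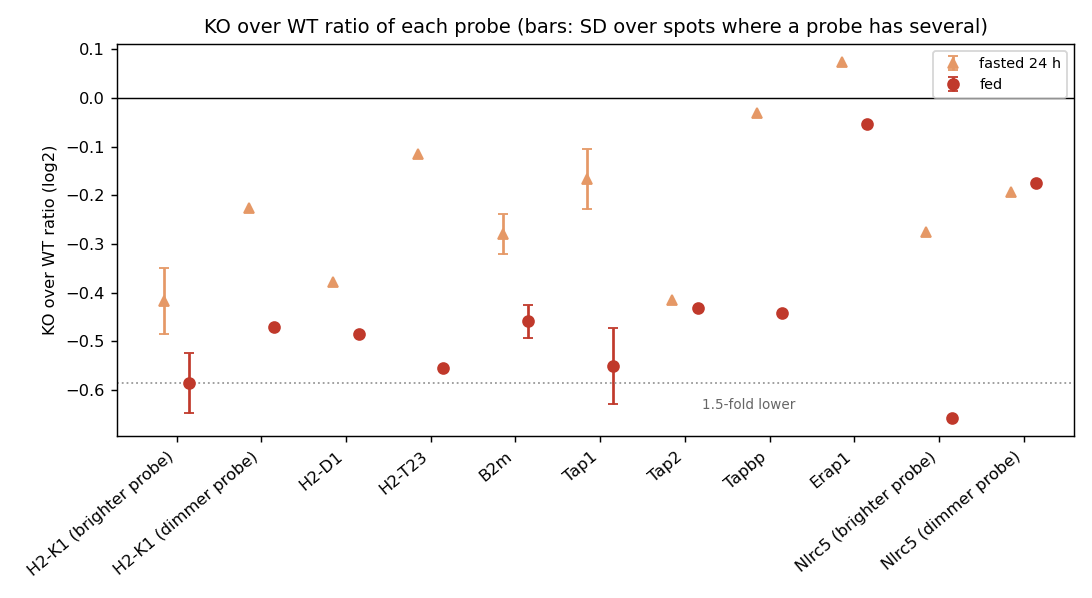
Log2 KO over WT ratio of each class I probe in fasted (triangles) and fed (circles) liver, with the SD over spots as bars where a probe has several spots and a dotted line at 1.5-fold lower. Fed ratios lie between -0.66 and -0.05 and fasted ratios between -0.42 and 0.07. Centred on the median of all gene spots in place of loess, 8 of the 9 genes changed sign in each state. The median of all genes was then 0.57 fasted and 0.78 fed, and the members' median relative to it was 0.01 and -0.20.

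Set beside all genes under loess, the members were low in both ratios without being large in fold. In fasted liver 0 of 9 were at least 1.5-fold lower in KO (1.48% of all measured genes) and 0 were 1.5-fold higher (1.26%). In fed liver 2 of 9, Nlrc5 and H2-K1, were at least 1.5-fold lower (1.41%), H2-K1 only just, and 0 were 1.5-fold higher (1.33%). None reached 2-fold lower (0.432% fasted, 0.396% fed) or 2-fold higher (0.359% fasted, 0.158% fed). With the mean of all probes of a gene in place of the brightest, 0 of 9 were 1.5-fold lower when fed.

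By rank under loess, H2-K1, Tap2 and H2-D1 stood lowest when fasted and Nlrc5, H2-K1 and H2-T23 when fed. In fasted liver 3.07% of measured genes had a lower ratio than H2-K1, 3.12% a lower one than Tap2 and 3.78% a lower one than H2-D1. B2m (7.02%), Nlrc5 (7.20%), Tap1 (15.9%), H2-T23 (23.04%) and Tapbp (39.9%) followed, and Erap1 stood above most genes (63.7%). In fed liver 8 of 9 members lay among the lowest few percent, from 1.01% for Nlrc5 to 2.51% for Tap2, with Erap1 at 34.5%. Tapbp, Erap1, H2-T23 and Tap1 thus differed most in rank between the states. Apart from Erap1 when fed, neighbours in the order within each array differ by less than the scanner errors of about 0.2, so that order is not resolved. Centred on measured gene spots, the members' median relative to all genes was 0.01 fasted and -0.20 fed. Fed H2-K1 (-0.05), H2-D1 (-0.07), H2-T23 (-0.11) and B2m (0.05) then stood near the median of all genes. Nlrc5 (-0.70) and Tap1 (-0.95) stayed lower, with Tap2 (-0.20), Tapbp (-0.21) and Erap1 (-0.35) between.

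After fasting, WT liver had less class I signal for most members, whereas KO liver was mixed. In KO liver the fasted over fed log2 ratios ran from -0.40 (Tapbp) to 0.43 (H2-D1), with a median of -0.08 and 5 of 9 below 0 (49.8% of 11785 genes). In WT liver they ran from -0.81 (Tapbp) to 0.32 (H2-D1), with a median of -0.26 and 8 of 9 below 0 (50.6% of 11441 genes). Medians of all genes were 0.00 in both. These ratios cross arrays: without normalization between the arrays the median of all genes was 0.45 in KO and 0.46 in WT, and those of the members were 0.46 and 0.27, so that 5 members in KO and 6 in WT changed sign.

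Tapbp was 1.32-fold lower after fasting in KO and 1.76-fold lower in WT liver, while H2-D1, 1.34-fold higher in KO, was furthest from 0 there. In KO liver 0 of 9 members were at least 1.5-fold lower after fasting (6.80%), 0 were 1.5-fold higher (6.74%), and none was 2-fold lower (2.14%) or 2-fold higher (2.42%). In WT liver Tapbp alone was at least 1.5-fold lower (5.97%), 0 were 1.5-fold higher (5.73%), and none was 2-fold lower (2.05%) or 2-fold higher (2.28%). H2-T23 was at 0.15 in KO and -0.29 in WT, Tap1 at 0.25 and -0.14, and Nlrc5 at 0.28 and -0.10. The dimmer Nlrc5 probe was at 0.07 in KO and 0.09 in WT. H2-K1 was at -0.16 in KO and -0.33 in WT, B2m at -0.08 and -0.26, Tap2 at -0.15 and -0.16, and Erap1 at -0.22 and -0.35. H2-D1, at 0.43 and 0.32, stood apart from the other heavy chains, though the dimmer H2-K1 probe was at 0.22 and -0.02.

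The fasted minus the fed log2 KO over WT ratio was above 0 for all 9 members and small for most. A dye effect of a probe that is the same on both arrays cancels in it. H2-T23 (0.44), Tapbp (0.41), Tap1 (0.38) and Nlrc5 (0.38) had the largest differences. Those of B2m (0.18), H2-K1 (0.17), Erap1 (0.13), H2-D1 (0.11) and Tap2 (0.02) were within the scanner error of a single ratio. A difference carries the errors of 2 ratios. The Tap1 spots ranged from 0.27 to 0.55 and the H2-K1 spots from 0.07 to 0.25. The dimmer Nlrc5 probe gave -0.02, and the mean of both Nlrc5 probes was 0.18. The members' median was 0.18, against -0.01 for all 11290 genes, and 0 of 9 were below 0, against 51.2%. None passed 1.5-fold upwards (2.25%) or downwards (1.98%), or 2-fold upwards (0.771%) or downwards (0.602%). With scanner-processed signals the median was 0.32, and with centring on the median of all gene spots it was -0.01, with 5 members changing sign.

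The immunoproteasome, whose subunits cut peptides suited to class I, differed more than the members themselves in fed liver. Its genes Psmb8, Psmb9, Psmb10 and the activator genes Psme1 and Psme2 had median log2 KO over WT ratios of -0.23 fasted and -0.91 fed. When fasted 0 of 5 were past 1.5-fold (1.48% of all measured genes lower, 1.26% higher). When fed 4 of 5 were at least 1.5-fold lower (1.41%). Psmb9 read 9.87 in KO fasted, 10.07 in WT fasted, 10.25 in KO fed and 11.45 in WT fed liver. The WT fed pool stood above the other 3, which were close together. Its ratio was -0.20 fasted and -1.20 fed, while Tap1, from the same promoter region on the other strand, was at -0.17 and -0.55. Psmb10 was at -0.35 fasted and -0.96 fed, Psmb8 at -0.23 and -0.91, and Psme2 at -0.24 and -0.63, its other probe giving -0.33 fed. Psme1, at -0.07 fasted and -0.39 fed, was nearer to 0 when fed than every member but Erap1. Centred on measured gene spots the median was 0.01 fasted and -0.53 fed, and on all gene spots 0.51 and 0.18. After fasting, all 5 were lower, with medians of -0.29 in KO and -0.86 in WT, though without normalization between arrays all 5 were higher in KO and 3 lower in WT.

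The other class I heavy chains resembled the members in direction. Of 22 looked up, 18 had a probe and 14 were measured. Their median ratio was -0.17 fasted, with 11 of 14 below 0 (47.3% of all measured genes), and -0.25 fed, with 13 of 14 (46.9%). Centred on measured gene spots the medians were 0.14 and -0.03, and on all gene spots 0.64 and 0.68. Signals of the H2-Q genes cannot be separated for sure from those of H2-K1 and H2-D1, so this likeness is not independent. H2-Q1 alone was at least 1.5-fold lower when fed (1 of 14, against 1.41% of all measured genes). Its ratio was -0.25 fasted and -0.85 fed, at log2 signals of 6.33 in KO fasted, 6.58 in WT fasted, 6.80 in KO fed and 7.65 in WT fed liver. The WT fed pool was again the highest. In fasted liver Cd1d1, which shows lipids to NKT cells, was the only one past that fold (1 of 14, against 1.48% lower and 1.26% higher). Its ratio was -0.66 fasted and -0.42 fed, its other probe giving -0.18 fed, and it is named here after its value was seen. H2-Q10, a liver-secreted class I protein, was at -0.19 fasted and -0.35 fed (its other probe -0.25 fed), and this choice too came after its value was seen.

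Chaperones and other peptide-processing genes did not lie below 0 with the members. All 14 looked up were measured, with a median ratio of 0.12 fasted and 0.04 fed, and none was past 1.5-fold in either state. Above 0 were 10 fasted and 9 fed, and below 0 were 4 and 5 (47.3% and 46.9% of all measured genes). Furthest from 0 in fed liver were the cytosolic peptidase gene Tpp2 (0.29 fasted, 0.48 fed), the glycoprotein folding sensor Uggt1 (0.41 and 0.40, its other probe 0.21 fed), the translocon gene Sec61a1 (0.24 and 0.28) and the peptidase gene Nrd1 (0.10 and 0.22). Centred on measured gene spots the medians were 0.39 and 0.46. Tapbp, which binds in the same loading complex as the chaperones of this list, differed from them in fed liver (-0.44).

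Among genes that control class I transcription, Irf1 and Irf7, both interferon regulatory factors, were at least 1.5-fold lower in fed KO liver. Irf1 read 10.25 in KO fasted, 10.17 in WT fasted, 10.27 in KO fed and 10.98 in WT fed liver, so the WT fed pool alone was high. Its ratio was 0.09 fasted and -0.71 fed. Irf7 was at -0.78 fasted and -0.86 fed. Of 17 such genes, 15 were measured fasted and 12 fed, with medians of -0.03 and -0.31. Below 0 were 8 fasted and 11 fed (47.3% and 46.9% of all measured genes), and 2 of 12 were 1.5-fold lower when fed (1.41%). Centred on all gene spots the medians were 0.45 and 0.39. Rfx5 and Ciita were not measured in either state. The brighter Creb1 probe was measured only when fasted (-0.03), and its other probe was at -0.06 fed.

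The interferon genes Ifng and Ifnb1 were not well above background in any pool. The 8 measured receptor and signalling genes had a median ratio of -0.01 fasted and -0.09 fed, and none was 1.5-fold apart. The furthest from 0 in fed liver were Socs1 (0.11 fasted, -0.35 fed), an inhibitor of interferon signalling, the kinase gene Tyk2 (-0.36 and -0.28), and the receptor genes Ifnar2 (-0.25 and -0.18) and Ifngr2 (0.12 and -0.14). These medians were 0.08 and 0.14 when centred on measured gene spots. Of 10 genes of T and NK cell recognition, 2 were measured, Cd3e (0.19 fasted, 0.00 fed) and Prf1 (0.15 and -0.04).

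Class II genes, which antigen-presenting cells use to show peptides to CD4 T cells, went beyond the class I genes and had the opposite direction when fasted. All 6 (H2-Aa, H2-Ab1, H2-Eb1, H2-DMa, H2-DMb1 and Cd74) had ratios above 0 fasted, with a median of 0.43. Fed, all 6 were below 0, with a median of -1.48. Of all measured genes 47.3% were below 0 fasted and 46.9% fed. In fed liver all 6 were at least 1.5-fold lower (1.41% of all measured genes) and 5 at least 2-fold lower (0.396%). These directions were the same with both centrings. Fasted ratios ran from 0.35 (H2-DMa) to 0.62 (H2-Ab1), and fed ones from -1.58 (Cd74) to -0.61 (H2-DMa). H2-Ab1 read 11.60 in KO fasted, 10.99 in WT fasted, 10.96 in KO fed and 12.44 in WT fed liver. The WT fed pool was the highest, as for Psmb9 and Irf1. The fasted minus fed ratio had a median of 1.93 for class II and 0.18 for the class I members.

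**Figure D3:**
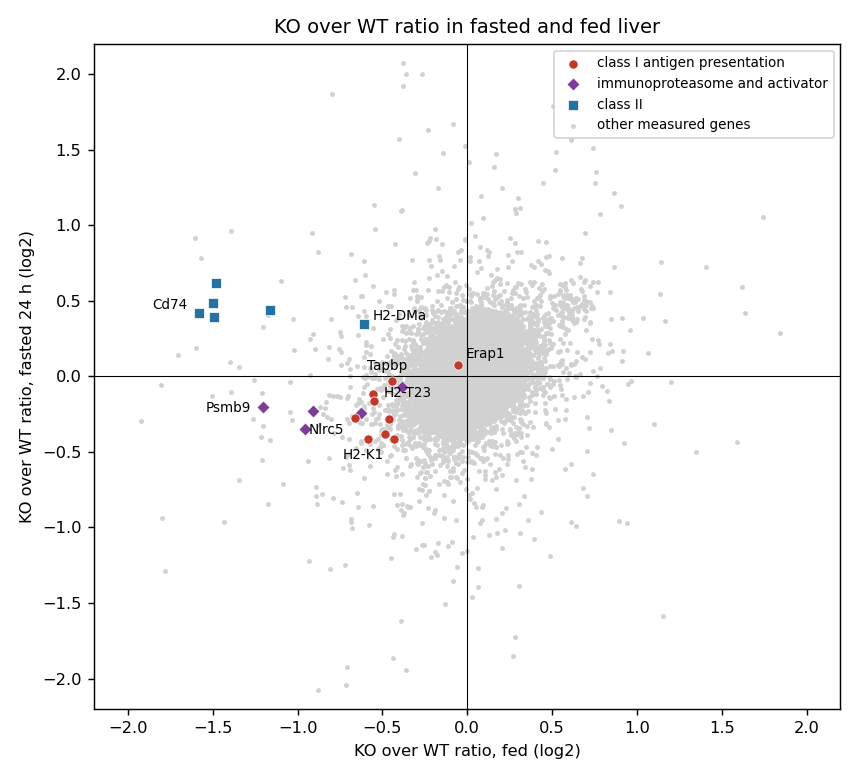
Log2 KO over WT ratio of each gene measured on both arrays, fed (horizontal) against fasted (vertical); 18 of 11290 genes lie outside the plotted range of 2.2 either way. Class I genes sit at or below 0 on both axes except Erap1. Psmb8, Psmb9 and Psmb10 lie further left than any class I gene, while the activator genes Psme1 and Psme2 do not. Class II genes lie left of 0 and above 0. With arrays centred on measured gene spots, class I genes were on both sides of 0.

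Markers of some other liver cells moved with the fed ratio. All 9 measured Kupffer cell and macrophage markers, of 11 looked up, were below 0 in fed liver (46.9% of all measured genes). They ran from -0.91 (Marco) to -0.16 (Clec4f), with a median of -0.34 (0.49 centred on all gene spots). When fasted they had a median of 0.13, with 4 of 9 below 0 (47.3%). Their summed log2 signal was 13.78 in KO fasted, 13.74 in WT fasted, 13.32 in KO fed and 13.71 in WT fed liver, and Cd163 was not above background in any pool. In that sum the KO fed pool was the low one, where for Psmb9 and Irf1 the WT fed pool was the high one. Not every marker followed the sum. Marco read 9.70 in KO fasted, 9.42 in WT fasted, 9.56 in KO fed and 10.47 in WT fed liver, so its WT fed pool was the high one. Csf1r, the brightest probe in the sum, had 3 probes with fed ratios from -0.47 to 0.05. With centring on measured gene spots the medians were 0.31 fasted and -0.22 fed. The part of these cells in the class I ratios was not tested.

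Of 10 T and NK cell markers, 6 were measured in all 4 pools, with summed log2 signals of 12.06 in KO fasted, 12.50 in WT fasted, 12.04 in KO fed and 12.22 in WT fed liver. Cd4 was the brightest probe in that sum (-0.63 fasted, -0.27 fed), and the median ratio went the other way when fasted, at 0.11 with 5 of 7 above 0, and was -0.19 fed. Cd8a, Klrb1c and Ncr1 were not above background in any pool. Neutrophil markers (3 of 5 measured) summed to 9.44 in KO fasted, 9.31 in WT fasted, 9.27 in KO fed and 9.72 in WT fed liver. The B cell marker Cd79b was at -0.44 fasted and -0.28 fed, and Cd79a and Ms4a1 were not above background. Dendritic cell markers had medians of 0.04 fasted (4 of 7 measured) and 0.03 fed (3 measured), with Flt3 and Xcr1 not above background. The fed median was the value of Siglech, whose probe read 14.65 in WT fed liver. Itgax (-0.10 fed) and Clec9a (0.15 fed) read 6.48 and 6.50 in WT fed liver, where the lowest signal above background was 6.11. These medians therefore say little about dendritic cells. The 5 markers of sinusoidal endothelium had medians of 0.03 fasted and -0.03 fed. Hepatocyte markers summed to 18.99 in KO fasted, 18.96 in WT fasted, 18.94 in KO fed and 19.00 in WT fed liver. Alb (-0.37 fed) and Serpina1a (0.19 fed), the brightest in that sum, had fed ratios of opposite sign. The 6 ratios ran from -0.99 (Apoa1) to 0.18 (Alb) fasted and from -0.58 (Apoa1) to 0.20 (Ttr) fed. In each state 3 of 6 were below 0 (47.3% of all measured genes fasted, 46.9% fed). The part of any of these cell types in the class I ratios was not tested.

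Among 11281 other genes measured in every comparison, the 5 nearest to the members' median profile were Nck2, Kyat1, Gmfg, Trmt9b and Cyp2c68. The measure was the Euclidean distance over 4 log2 ratios (KO over WT fasted and fed, fasted over fed KO and WT) that come from only 4 pools. The distances were 0.092, 0.098, 0.102, 0.111 and 0.112. Of the members, B2m was nearest to the median profile (0.026), then Tap2 (0.19) and H2-K1 (0.20), and H2-D1 was furthest (0.78), after Tapbp (0.68) and Erap1 (0.58). Most members lay further from their median than those 5 genes did.

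**Figure D4:**
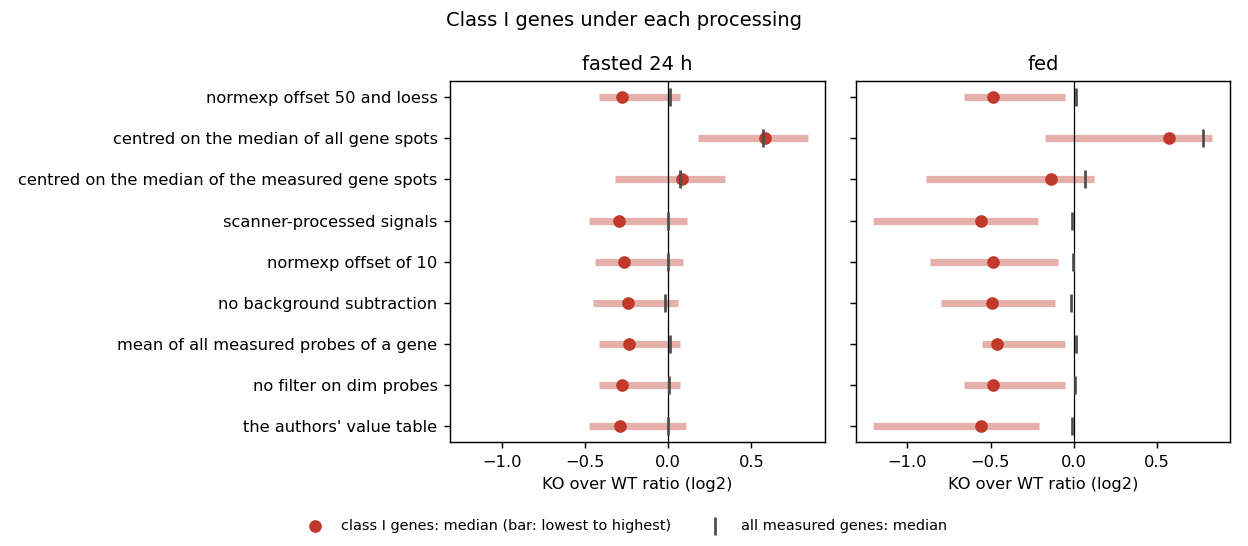
Log2 KO over WT ratio of the 9 class I genes (point: median, bar: lowest to highest) and the median of all measured genes (tick) under each processing, fasted (left) and fed (right). The members' median lies below 0 except with centring on all gene spots (0.58 fasted, 0.57 fed) and, fasted, on measured gene spots (0.08). With centring on all gene spots the median of all genes was 0.57 fasted and 0.78 fed.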

How the data were processed

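Total liver RNA was pooled per group, and WT was labelled with Cy3 and CREBH KO with Cy5 on both arrays, per the labels. The 2 arrays share 1 slide and 1 scan. Files written by Agilent's Feature Extraction software (10.10.1.1, with mouse build mm9, per the file headers) were deposited by the authors: spot and background intensity values as pixel medians, not normalized, intensity values processed by that software, and log10 ratios of Cy5 over Cy3 with their errors. The authors' deposited value table holds log2 ratios that equalled those log10 ratios to within 0.005. Its direction and scale were taken from this match, its columns had medians of 0.00, and any further centring stays unknown.

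Median signals were corrected with normexp (offset 50) and normalized by loess within and Aquantile between arrays, in limma 3.58.1 under R 4.3.3. These steps were tested on simulated data in which each dye had a constant gain on an array. That test cannot decide between loess and centring on these arrays. Normexp was fitted on all spots. Control spots (3671 per array) were left out of the loess fit and of the values. Outlier spots (197 fasted, 216 fed) were left out of the values only after these fits. No gene spot was saturated, and spots of a probe were averaged. Probes were named by RefSeq accession (26762 probes), and the brightest probe stood for the 5405 genes with several. A gene was measured where its probe passed the software's background call in 50% of spots or more in every channel compared. No test was possible with 1 pool per group, and the number of arrays limits the precision. Members, gene lists and markers were chosen with earlier results of these data known. Named were all members, the genes of each list past 1.5-fold in fed liver or else up to 4 furthest from 0, and the 5 nearest profiles. A planned comparison of protein sequences was not run. Alternatives were other centring, background correction, probe choice, filters, signals and normalization between arrays.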

Additional observations from a re-analysis of the deposited data

Results flagged for a closer look

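Each value here is the fasted minus the fed log2 KO over WT ratio (equally, the fasted over fed ratio in KO minus that in WT), and none of these differences was tested. H2-T23 (0.439), Tap1 (0.384) and Nlrc5 (0.382) had fasted over fed ratios above 0 in KO and below 0 in WT liver. Without normalization between arrays their WT ratios were above 0 too (0.30, 0.16 and 0.42). At the dimmer Nlrc5 probe the fasted over fed ratio was above 0 in both genotypes (0.07 in KO, 0.09 in WT). Erap1 (0.128), Irf1 (0.796), Ifngr2 (0.252) and Socs1 (0.462) had KO over WT ratios above 0 fasted and below 0 fed, though Erap1 was below 0 in both states when centred on measured gene spots (-0.08 and -0.28). Both patterns held for the class II genes H2-Aa (1.88), H2-Ab1 (2.10), H2-Eb1 (1.98), H2-DMa (0.960), H2-DMb1 (1.60) and Cd74 (2.001), and for Prf1 (0.187), the gene of perforin. The values of Erap1 and Prf1 are under the scanner error of about 0.2 that the class I ratios have. Each value here carries the errors of 2 ratios, so that others such as Ifngr2 are not resolved for sure either.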

How the results depend on the processing

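The KO over WT direction of the class I genes depends on loess. Centring arrays on the median of all gene spots moved the median of all genes to 0.57 fasted and 0.78 fed. The members' median was then 0.581 fasted and 0.574 fed (0.0111 and -0.203 relative to all genes), 0 members were 1.5-fold lower when fed, and 8 of 9 members changed sign in each state, among them both that were 1.5-fold lower when fed, H2-K1 (0.723) and Nlrc5 (0.0762). Centred on measured gene spots it was 0.0835 fasted and -0.136 fed (0.0111 and -0.203 relative to all genes), and 6 members changed sign fasted and 2 fed, H2-K1 (0.0128) and B2m (0.122). The mean of all probes of a gene left 0 members 1.5-fold lower when fed. The members' fasted over fed median was -0.223 in KO and -0.124 in WT when centred on all gene spots, 0.0300 and -0.178 with the mean of probes, and 0.455 and 0.270 without normalization between arrays. The fasted minus fed median was -0.0135 when centred on all gene spots, 0.325 with scanner-processed signals and 0.320 in the authors' deposited table. The longer interferon core stood in 1 promoter on the given strand alone.

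Over all genes, 160 were 1.5-fold lower and 151 higher in fed KO liver, against 19 and 7513 when centred on all gene spots, 734 and 662 on measured gene spots, and 473 and 348 with scanner-processed signals. In fasted KO liver 181 were lower and 154 higher, against 32 and 5890, 248 and 624, and 389 and 385. After fasting, 801 were lower and 794 higher in KO, against 206 and 4299 without normalization between arrays, and 683 and 655 in WT, against 177 and 4221. Another 60 summary values did not move beyond their technical spread (counts: by 1.5 times).

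No paired analysis was possible because each group has 1 pool. No replicate was left out, for the same lack of replicates. A planned comparison of heavy chain proteins was not run. The offset shrinks the ratios of dim probes such as those of Tap1 and Nlrc5. The cause of these shifts was not tested.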
